A study of Mus musculus with 6 samples.

Results

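RNA of the TGF-beta and BMP signalling pathways was examined in primary mouse embryonic fibroblasts (pMEFs) with and without HAT1, the enzyme that acetylates newly synthesized histone H4. The genes were taken by symbol from a list of 54 ligands, receptors, signal carriers, antagonists and targets. Of these 54 genes, 53 had a row among the 17512 genes of the count table, and 52 passed the filter on low counts and were tested among 14773 genes. Gdf5 missed the filter, with 34 counts over the 6 libraries, and Bmp7 was not analysed here.

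The 6 lines were C57bl6 pMEFs grown in serum-containing medium without any added ligand. HAT1 WT was represented by lines 36, 47 and 78, and HAT1 KO by lines 33, 41 and 72, and the labels name no treatment and no other allele. Values per line are given in that order throughout. The cells came from mid-gestation embryos freed of their internal organs, so each line is a mixed culture and not a clone. The labels do not tie a line to an embryo or litter, so a p-value measures the spread between these lines only.

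Ligands of the TGF-beta superfamily bind pairs of type I and type II serine/threonine kinase receptors on the cell surface. TGF-beta and activin receptors phosphorylate Smad2 and Smad3, while BMP receptors phosphorylate Smad1, Smad5 and Smad9, and both groups enter the nucleus with Smad4. Secreted antagonists capture the ligands outside the cell, inhibitory Smads act inside it, and in fibroblasts TGF-beta is known for driving matrix production and the contractile myofibroblast state.

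Several features of the libraries bear on all values below. Total counts lay between 67720628 and 98786746 per library. Hat1, the targeted gene, was at 17.4, 23.04 and 20.1 CPM, the read count scaled to the library total, in WT lines 36, 47 and 78 and at 10.2, 10.03 and 10.3 CPM in KO lines 33, 41 and 72, with an adjusted p of 0.0376 in the edgeR test. The part of the gene that the KO allele lacks was not given in the sources used here. KO line 72 stood apart from the other lines, with a mean correlation of 0.971 to them on log2 CPM against at least 0.983 for every other line, across genes, which are not replicates. Y-linked genes had 12841 to 13788 counts in WT lines 36 and 47, 231 in WT line 78 and 4 to 8 in the KO lines, so sex was unbalanced between the genotypes, and its part in the results was not tested. The sequencing lanes were shared unevenly too. WT line 47 was sequenced in lane 6 together with KO lines 33 and 72, WT line 78 in lane 7 together with KO line 41, and WT line 36 in lane 8 without a KO line. All 12 fibroblast markers on the list were measured, with a summed level of 61461 to 69372 CPM in HAT1 WT and 47009 to 78967 CPM in HAT1 KO. All 12 macrophage markers were present too, with sums of 5094 to 5634 CPM in HAT1 WT and 2468 to 3072 CPM in HAT1 KO. Of the 12, 11 were lower at an unadjusted p under 0.05, as were 8.77% of all tested genes. Proliferation genes summed to 493 to 741 CPM in HAT1 WT and 695 to 1030.0 CPM in HAT1 KO. Here 8 of 12 were higher at that threshold, as were 5.88% of all tested genes. Endothelial markers summed to no more than 14.6 CPM in any line, with Tie1 and Sox17 without a row. Of the 5 tested endothelial markers, 2 were lower at the same threshold.

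None of the 52 tested pathway genes had an adjusted p under 0.05 in the edgeR test, a threshold passed by 0.528% of all tested genes. At an unadjusted p under 0.05 there were 5 genes, 4 lower and 1 higher in HAT1 KO. That is 7.69% lower and 1.92% higher, beside 8.77% lower and 5.88% higher among all tested genes. The 4 lower genes were the receptors Acvr1b and Tgfbr2 and the targets Id2 and Skil, and the higher gene was the ligand Tgfb3. The lines of the genotypes did not overlap for 6 genes, all lower in HAT1 KO (Tgfbr1, Acvr1b, Tgfbr2, Grem1, Id2 and Skil). This was 11.5% of the pathway genes and 12.4% of all genes. No pathway gene lay wholly higher, against 9.59% of all genes. The median log2 fold change of the 52 genes was 0.025, with 28 positive and 24 negative values, and that of all tested genes was 0.0085. By another tool, the DESeq2 Wald test, 2 pathway genes (Acvr1b and Skil) passed an adjusted p of 0.05, where 5.81% of all genes did.

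**Figure D1:**
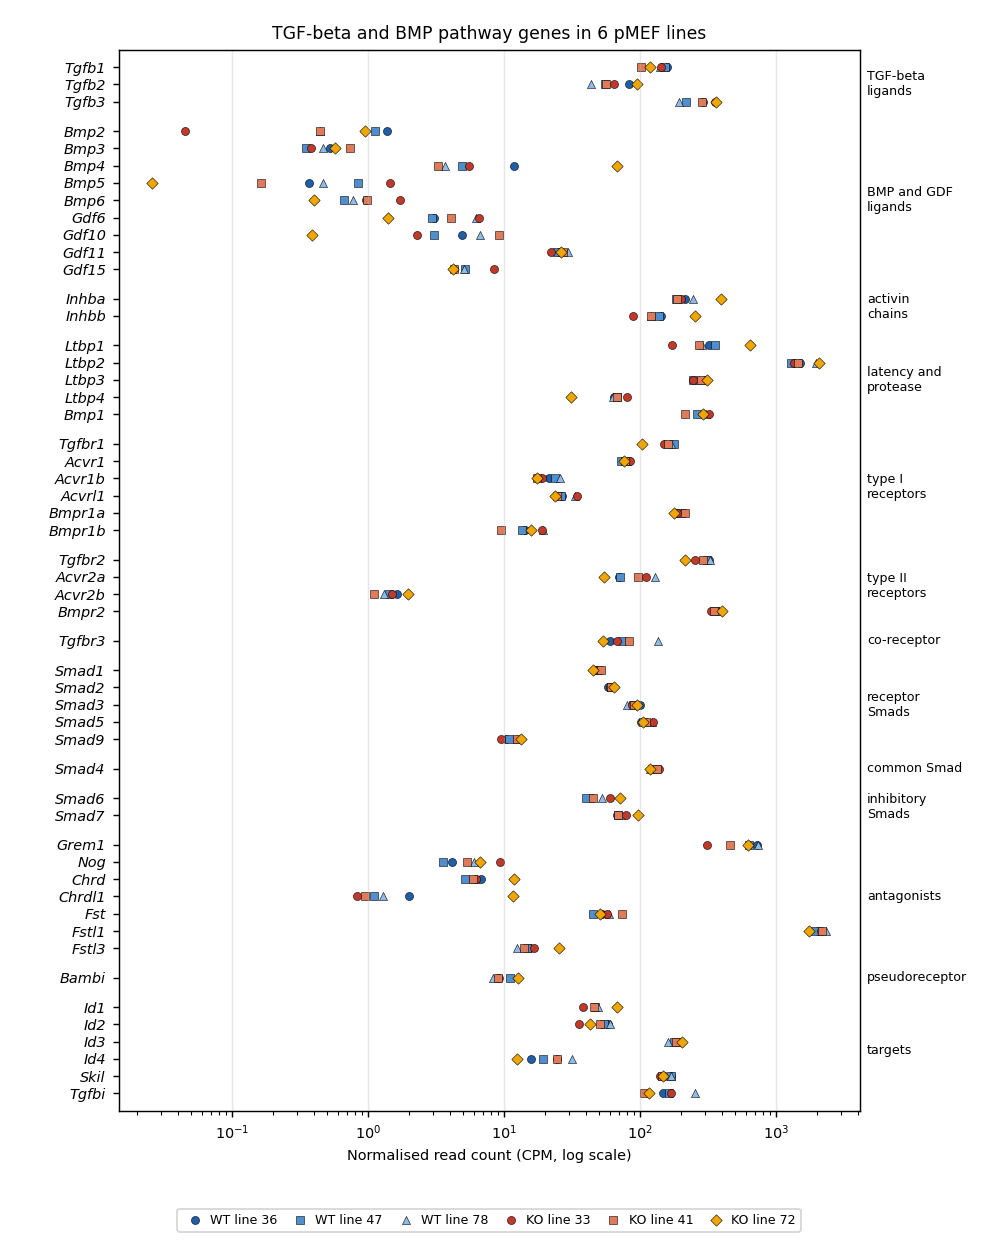
Normalised read count (CPM, logarithmic axis) of the 52 tested pathway genes in each of the 6 lines, 1 row a gene, grouped by role, with blue circles, squares and triangles for WT lines 36, 47 and 78, and red circles, salmon squares and orange diamonds for KO lines 33, 41 and 72. Smad rows are narrow, while Bmp4, Chrdl1, Gdf10 and Ltbp1 are spread out by the diamond of KO line 72.

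Levels of different genes were compared per kilobase of exon. In HAT1 WT the TGF-beta ligands were led by Tgfb3 with 69.2 ± 15.04 CPM per kb (SD, n = 3), above Tgfb1 with 29.96 ± 1.87 and Tgfb2 with 10.5 ± 3.53 CPM per kb. The activin chains Inhba and Inhbb stood at 33.6 ± 4.93 and 31.4 ± 2.68 CPM per kb, a difference within their spread. The BMP and GDF ligands were far lower. Gdf11 led them with 6.55 ± 0.665 CPM per kb, ahead of Bmp4 with 3.03 ± 1.97 and Gdf15 with 2.64 ± 0.263, which lay within the spread of each other, and Bmp2, Bmp3, Bmp5 and Bmp6 each averaged under 1 CPM. Of all 53 genes measured, the highest per kilobase were Fstl1, a follistatin-related glycoprotein, at 428 ± 42.6 CPM per kb, the matrix protein gene Ltbp2 at 195 ± 43.7 and Grem1, which sequesters BMP ligands, at 169 ± 13.2. Ltbp2 and Grem1 lay within the spread of each other.

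Among the TGF-beta ligands, Tgfb3 was measured at 291, 218 and 193 CPM in HAT1 WT and 359, 289 and 362 CPM in HAT1 KO. WT line 36 lay just above KO line 41, and otherwise the KO lines were higher. Tgfb3 differed by 0.52 on the log2 scale (SE 0.17), at an adjusted p of 0.262, and the differences on log2(CPM + 0.5), the scale of every within-lane value, were 0.72 within lane 6 and 0.58 within lane 7. Its unadjusted p was over 0.05 without WT line 47, WT line 78 or KO line 33, and with voom. Tgfb1, the ligand made by many blood and connective tissue cells, had 159, 154 and 141 CPM in HAT1 WT and 143, 101 and 119 CPM in HAT1 KO. Only KO line 33 reached into the WT range, and the log2 fold change was -0.32 (SE 0.13, adjusted p = 0.341). The unadjusted p of Tgfb1 was 0.0503 in edgeR. It was under 0.05 in DESeq2, with voom, with scaling by library size alone, and without KO line 33. The summed macrophage markers were lower in all 3 KO lines, and their part in the Tgfb1 value was not tested. In such bulk samples fewer cells of a type and less RNA per cell cannot be told apart. Tgfb2 overlapped between the genotypes, with 60.9 ± 20.4 CPM in HAT1 WT and 72.03 ± 20.7 CPM in HAT1 KO (SD, n = 3).

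None of the BMP and GDF ligands had an unadjusted p under 0.05 in the edgeR test with all lines. Bmp2 was lower at that threshold with voom, and Bmp5 without KO line 33. Gdf11, which signals through activin-type receptors and was the most abundant of them, overlapped between the genotypes at 25.6, 24.5 and 29.7 CPM in HAT1 WT and 22.4, 27.03 and 26.2 CPM in HAT1 KO. The other 8 tested ligands of this class had log2 fold changes between -1.04 (Bmp2, SE 0.94) and 1.92 (Bmp4, SE 1.20), with adjusted p-values of 0.514 or more. Bmp4, which patterns mesenchyme in the embryo, was measured at 11.9, 4.91 and 3.67 CPM in HAT1 WT and 5.54, 3.25 and 68.3 CPM in HAT1 KO. KO line 72 was far above the other 5 lines, and without it the log2 fold change was -0.61 (SE 0.55). Bmp5 shares 46.7% of its exon bases with an antisense gene, so its low counts are uncertain in data for which the use of strand is not stated.

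Activin A and B are dimers of the chains encoded by Inhba and Inhbb. Inhba was at 215, 183 and 246 CPM in HAT1 WT and 202, 188 and 393 CPM in HAT1 KO, with KO line 72 above all others and the remaining 5 lines between 183 and 246 CPM. Inhbb was at 142, 138 and 121 CPM in HAT1 WT and 88.9, 121 and 255 CPM in HAT1 KO. Here too KO line 72 was the highest line, while KO line 33 was the lowest. Log2 fold changes were 0.28 (SE 0.30) and 0.22 (SE 0.38) and became -0.12 and -0.33 without KO line 72, all short of an unadjusted p of 0.05.

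TGF-beta is secreted as a latent complex that latent TGF-beta binding proteins anchor to the matrix. Ltbp2, the most abundant transcript of this group per kilobase, does not bind latent TGF-beta itself. It was at 1503, 1297 and 1993 CPM in HAT1 WT and 1357, 1464 and 2084 CPM in HAT1 KO, with overlapping genotypes. Ltbp1, which does bind it, was at 322, 360.4 and 285 CPM in HAT1 WT and 173, 273 and 650.1 CPM in HAT1 KO. KO line 72 was the highest line and KO line 33 the lowest. Its log2 fold change was 0.18 (SE 0.46) over all lines and -0.52 (SE 0.21, adjusted p = 0.261) without KO line 72. Ltbp4 was at 64.9, 68.3 and 63.5 CPM in HAT1 WT and 80.2, 67.96 and 31.1 CPM in HAT1 KO. There KO line 72 lay below the other lines, which ran from 63.5 to 80.2 CPM. Ltbp3 and the protease gene Bmp1, whose product cleaves procollagen, had log2 fold changes of 0.037 (SE 0.12) and -0.058 (SE 0.16).

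Of the 10 genes for type I and type II receptors, 3 were lower in HAT1 KO without overlap of the lines, as were 12.4% of all genes, and nothing is read from so small a group. Tgfbr1 and Tgfbr2 encode the type I and type II receptors for TGF-beta, and Acvr1b a type I receptor for activin and related ligands. Tgfbr2 (chr9:116084293-116175360 of GRCm38, minus strand), the most abundant type II receptor per kilobase, had 322, 311 and 327 CPM in HAT1 WT and 254, 292 and 214 CPM in HAT1 KO. Its difference on the log2 scale was -0.34 (SE 0.12), at an adjusted p of 0.289, with differences of -0.41 within lane 6 and -0.16 within lane 7. Without KO line 72, the lowest line, it was -0.22 (adjusted p = 0.246), and the unadjusted p was over 0.05 without any 1 of WT lines 36, 47 and 78 or KO line 33, and with the lane as a term. Tgfbr1 (chr4:47353222-47414931, plus strand) was at 169, 179 and 170.4 CPM in HAT1 WT and 150.3, 161 and 103 CPM in HAT1 KO. The 5 lines other than KO line 72 spanned 150.3 to 179 CPM. Its log2 fold change was -0.32 (SE 0.16, adjusted p = 0.433) with all lines and -0.14 (adjusted p = 0.342) without KO line 72. Acvr1b (chr15:101174067-101213684, plus strand) was expressed at a lower level, 21.6, 23.7 and 25.99 CPM in HAT1 WT and 19.1, 17.5 and 17.6 CPM in HAT1 KO. This gene differed by -0.40 on the log2 scale (SE 0.096, adjusted p = 0.164), by -0.36 within lane 6 and by -0.56 within lane 7. Its unadjusted p stayed under 0.05 in all 12 alternative analyses. For each of these receptors the exact permutation p over the lines was 0.1, the smallest that 3 lines against 3 allow.

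Promoter sequences are shown for Tgfbr1 and Tgfbr2, the pair that forms the TGF-beta receptor, and for the BMP antagonist Grem1, because these genes lay lower in all KO lines and their windows hold no annotated exon base. Each line gives the 250 bases upstream of a RefSeq start in GRCm38.p6, 5′ to 3′ on the strand of the gene, with letters of the searched motifs in capitals.
Tgfbr1 (chr4:47352972-47353221, plus strand): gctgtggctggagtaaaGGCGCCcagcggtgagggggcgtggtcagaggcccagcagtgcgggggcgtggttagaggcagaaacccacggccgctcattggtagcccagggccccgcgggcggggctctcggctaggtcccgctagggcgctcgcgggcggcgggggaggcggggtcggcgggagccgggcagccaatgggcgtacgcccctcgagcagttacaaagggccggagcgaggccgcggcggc
Tgfbr2 (chr9:116175364-116175613, minus strand): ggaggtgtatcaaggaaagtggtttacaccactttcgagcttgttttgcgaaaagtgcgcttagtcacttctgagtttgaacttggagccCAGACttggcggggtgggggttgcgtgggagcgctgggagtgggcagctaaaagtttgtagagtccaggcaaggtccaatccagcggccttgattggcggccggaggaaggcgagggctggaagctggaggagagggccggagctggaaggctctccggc
Grem1 (chr2:113758649-113758898, minus strand): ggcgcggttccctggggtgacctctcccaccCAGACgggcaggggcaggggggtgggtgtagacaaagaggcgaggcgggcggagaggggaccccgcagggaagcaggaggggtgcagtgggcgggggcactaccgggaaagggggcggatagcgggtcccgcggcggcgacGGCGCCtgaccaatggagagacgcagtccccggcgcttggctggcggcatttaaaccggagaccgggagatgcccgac

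The motifs searched, on both strands, were the palindromic Smad element GTCTAGAC, the shorter element CAGAC and the GC-rich element GGCGCC to which Smads can bind. No match overlapped another in the 3 windows shown. The Tgfbr1 window shown held 1 GGCGCC, Tgfbr2 held 1 CAGAC, and Grem1 held 1 of each. Tgfbr1 has a second RefSeq start, whose window (chr4:47385966-47386215, not shown) held 1 CAGAC and no GGCGCC. Of 36 pathway genes with an entry in the RefSeq promoter table, 18 had CAGAC in at least 1 window and 11 had GGCGCC. Counted by window, 21 of their 45 windows held CAGAC, 12 held GGCGCC and 0 held GTCTAGAC. Windows of the same gene can overlap, as those of Ltbp4 and Smad5 do, so a match can be counted more than once. Among all 32851 windows of the same length, 42.2% held CAGAC, 9.59% held GGCGCC and 0.167% held GTCTAGAC. The base composition of the windows was not taken into account, and nothing is read from the difference. These matches describe the letters of the windows and were not set against any measurement of binding.

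**Figure D2:**
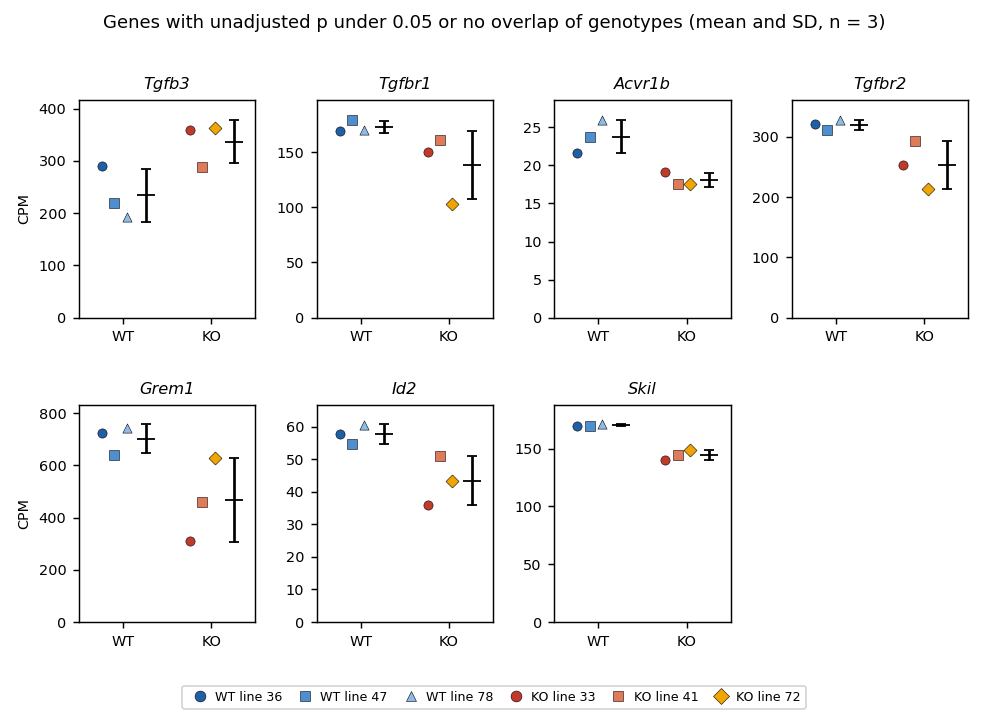
Normalised read count (CPM, linear axis from 0) of the 7 genes with an unadjusted p under 0.05 or with no overlap between the genotypes, with 1 symbol a line and the mean and SD of each genotype (n = 3) beside them. The 3 KO lines lie below the 3 WT lines for all but Tgfb3, and the Skil panel has the smallest spread.

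For the other receptors the lines of the genotypes overlapped. Bmpr1a, the most abundant type I receptor per kilobase and a receptor for BMPs, was at 210.1, 189.9 and 200.2 CPM in HAT1 WT and 188, 215 and 179 CPM in HAT1 KO. Bmpr2, its type II partner, had 369 ± 12.2 CPM in HAT1 WT and 362 ± 34.4 CPM in HAT1 KO (SD, n = 3). For Acvr1, Acvrl1, Bmpr1a, Bmpr1b, Acvr2a, Acvr2b and Bmpr2 the log2 fold changes ran from -0.085 to 0.066 (SE from 0.077 to 0.34). Acvrl1 is best known from endothelial cells. Of the markers of that type, Kdr stood at 8.82, 9.55 and 10.1 CPM in HAT1 WT and 6.58, 10.2 and 8.63 CPM in HAT1 KO, while Pecam1 and Cdh5 stayed under 1 CPM in every line. Pecam1 averaged 0.592 CPM in HAT1 WT and 0.189 CPM in HAT1 KO, and Cdh5 0.603 and 0.333 CPM. Both lay lower in every KO line, whereas Kdr, Tek and Egfl7 overlapped between the genotypes. Tgfbr3, the co-receptor betaglycan, was at 60.7, 73.5 and 137 CPM in HAT1 WT and 68.5, 83.02 and 53.2 CPM in HAT1 KO. WT line 78 was far above the rest, and the log2 fold change was -0.41 (SE 0.33, adjusted p = 0.616). The pseudoreceptor gene Bambi, whose product lacks the kinase, was low and overlapping at 9.11, 11.1 and 8.30 CPM in HAT1 WT and 9.15, 9.05 and 12.7 CPM in HAT1 KO.

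The Smads that carry the signal had small differences. Log2 fold changes of Smad1, Smad2, Smad3, Smad5 and Smad9 lay between -0.0027 and 0.067, with SE from 0.058 to 0.16 and adjusted p-values of 0.779 or more. Smad3, the highest of them per kilobase, was at 101, 89.4 and 81.1 CPM in HAT1 WT and 87.4, 90.3 and 94.7 CPM in HAT1 KO. Smad4, the shared partner, was at 129, 123 and 119.5 CPM in HAT1 WT and 138, 133 and 119 CPM in HAT1 KO, a log2 fold change of 0.073 (SE 0.076). In both genes the lines of the genotypes overlapped. The inhibitory Smads, which are themselves induced by the pathway, had larger positive differences that did not pass. Smad7 was at 68.5, 69.3 and 73.1 CPM in HAT1 WT and 78.7, 68.9 and 97.7 CPM in HAT1 KO, and Smad6 at 44.8, 40.3 and 52.5 CPM in HAT1 WT and 60.5, 45.4 and 71.996 CPM in HAT1 KO. KO line 72 was the highest line for both, KO line 41 lay within the WT range, and the log2 fold changes were 0.22 (SE 0.13, adjusted p = 0.493) and 0.37 (SE 0.18, adjusted p = 0.421). Without KO line 41 both reached an unadjusted p under 0.05.

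Extracellular antagonists capture BMPs or activins before they reach a receptor. Grem1 (chr2:113746164-113758646, minus strand), the BMP antagonist gremlin, was at 724, 640.1 and 744 CPM in HAT1 WT and 311, 461 and 630.1 CPM in HAT1 KO. Every KO line lay below every WT line, KO line 72 only just, and the exact permutation p was 0.1. The difference on the log2 scale was -0.59 (SE 0.25), at an adjusted p of 0.348, while without KO line 72 it was -0.85 (SE 0.18, adjusted p = 0.115). Without KO line 33, the lowest line, it was -0.36 (adjusted p = 0.441). Within lane 6 the difference was -0.53 and within lane 7 it was -0.69. Nog, which encodes the BMP antagonist noggin, was at 4.19, 3.58 and 6.003 CPM in HAT1 WT and 9.44, 5.36 and 6.71 CPM in HAT1 KO. WT line 78 lay within the KO range, and the log2 fold change was 0.64 (SE 0.28, adjusted p = 0.367). The unadjusted p of Nog was under 0.05 in DESeq2, with voom, and without WT line 78 or KO line 41. Fst, the activin-binding follistatin, and Fstl1, the most abundant of the class, had log2 fold changes of 0.21 (SE 0.17) and -0.051 (SE 0.12), with Fstl1 at 2034, 1937 and 2338 CPM in HAT1 WT and 2144, 2177 and 1767 CPM in HAT1 KO. Chrd, Chrdl1 and Fstl3 were each highest in KO line 72. Fst was higher at an unadjusted p under 0.05 with the lane as a term, and Fstl3 without KO line 41. Fstl3 shares 47.3% of its exon bases with Prss57 on the other strand, and its counts are uncertain for that reason.

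Of the target genes, Skil and Id2 had unadjusted p-values under 0.05 and Id1, Id3, Id4 and Tgfbi did not. Skil (chr3:31095058-31122577, plus strand) encodes SnoN, a repressor of Smad transcription that TGF-beta itself induces. It was at 169.9, 169.9 and 171 CPM in HAT1 WT and 140.4, 145 and 148 CPM in HAT1 KO. The WT lines were almost equal and all 3 KO lines lay lower, with a difference of -0.24 on the log2 scale (SE 0.056, adjusted p = 0.153). This was the smallest p of the 52 genes and the difference was -0.23 within lane 6 and -0.24 within lane 7. Over the 12 alternative analyses its log2 fold change ran from -0.24 to -0.22 and its adjusted p from 0.00214 to 0.772.

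Id proteins are inhibitors of helix-loop-helix transcription factors and common readouts of BMP signalling. Id2 (chr12:25093799-25097140, minus strand) was at 57.9, 54.7 and 60.7 CPM in HAT1 WT and 35.9, 51.01 and 43.2 CPM in HAT1 KO. Its genotypes did not overlap, and the log2 fold change was -0.41 (SE 0.13, adjusted p = 0.246), with -0.47 within lane 6 and -0.25 within lane 7. The exact permutation p was 0.1 for Id2 and Skil, again the smallest possible. Id3, the highest target per kilobase, was at 192, 179 and 160.4 CPM in HAT1 WT and 199, 186 and 204 CPM in HAT1 KO, with KO line 41 inside the WT range and a log2 fold change of 0.15 (SE 0.086, adjusted p = 0.481). Id1, at 46.7, 46.7 and 49.4 CPM in HAT1 WT and 38.04, 46.4 and 68.3 CPM in HAT1 KO, was lowest in KO line 33 and highest in KO line 72. The 4 Id genes had 2 positive and 2 negative values. Tgfbi, a secreted matrix protein named for its induction by TGF-beta, was at 148, 164 and 254 CPM in HAT1 WT and 169, 107 and 117 CPM in HAT1 KO. WT line 78 was the highest and KO line 33 lay within the WT range, with a log2 fold change of -0.53 (SE 0.26, adjusted p = 0.42). In DESeq2 and without KO line 33 its unadjusted p was under 0.05. The lower macrophage markers of the KO lines stand beside the Tgfbi value as well, and their part in it was not tested.

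**Figure D3:**
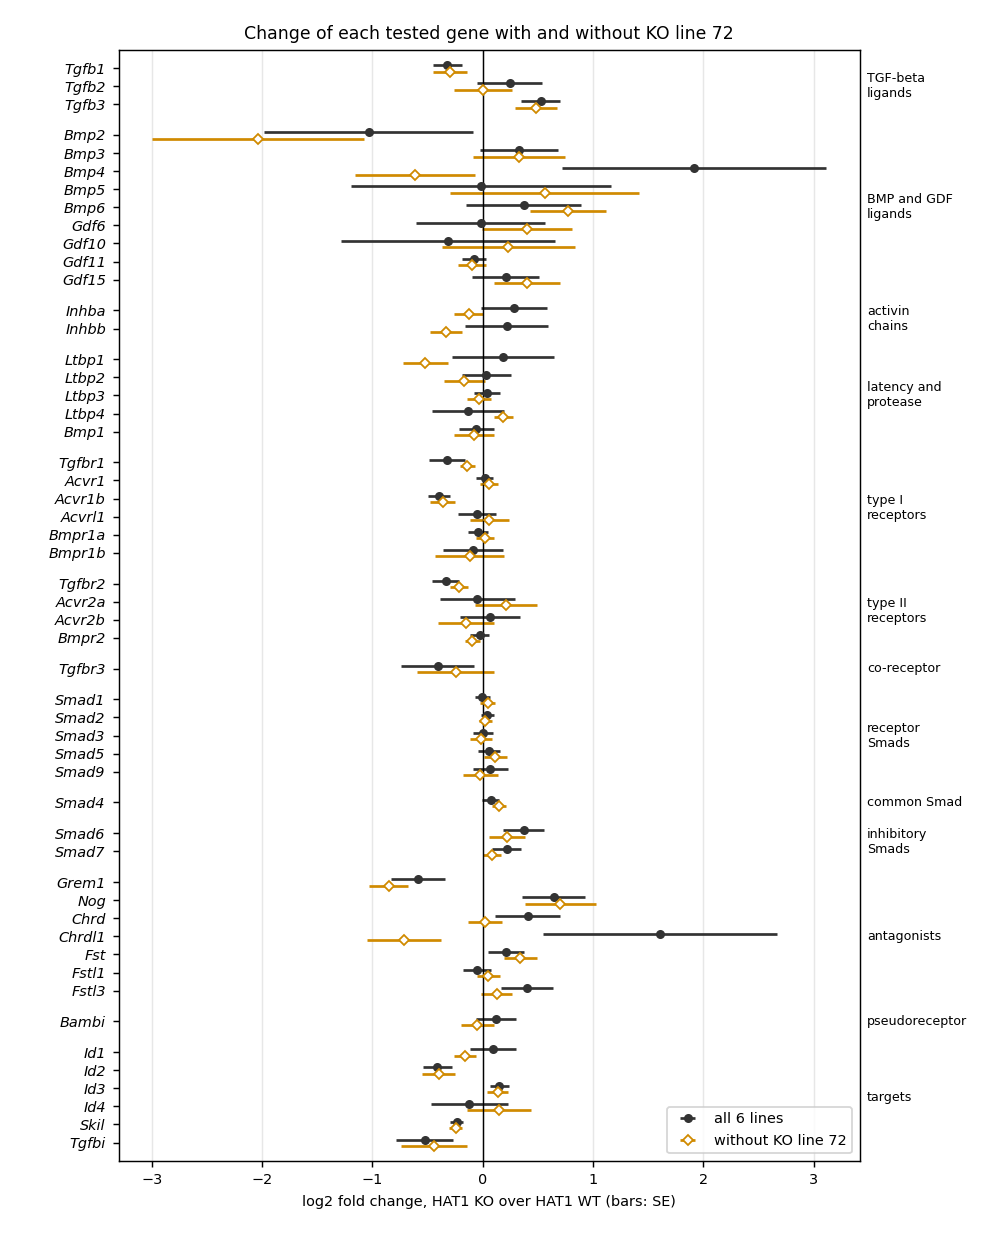
Log2 fold change of HAT1 KO over HAT1 WT for the 52 tested genes, grouped by role, with SE bars, from all 6 lines (filled circles) and without KO line 72 (open diamonds). Skil, Acvr1b, Id2 and Tgfb3 stay on their side of 0, whereas Bmp4, Chrdl1, Ltbp1, Inhba and Inhbb cross it.

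KO line 72 stood apart for more of the pathway genes than any other line. It lay at least 1.5-fold above or below all other lines, on CPM + 0.5, for 10 of the 52 genes (19.2%), and for 6.72% of all genes. The same was true of 3 genes in KO line 33 (1.21% of all genes), 2 in WT line 78 (1% of all genes) and 0 in WT line 36 (0.183% of all genes), WT line 47 (0.0609% of all genes) and KO line 41 (0.731% of all genes). In KO line 72 the higher genes were Bmp4, Inhba, Inhbb, Ltbp1, Chrd, Chrdl1 and Fstl3, and the lower ones Gdf6, Gdf10 and Ltbp4. Chrdl1, a chordin-like BMP antagonist on the X chromosome, was at 2.002, 1.12 and 1.29 CPM in HAT1 WT and 0.831, 0.947 and 11.7 CPM in HAT1 KO. The log2 fold change of 1.61 (SE 1.06) became -0.71 (SE 0.34) without that line. Chordin itself, from Chrd, was at 6.74, 5.19 and 6.15 CPM in HAT1 WT and 6.21, 5.93 and 11.8 CPM in HAT1 KO. Fstl3, an activin antagonist, was at 15.6, 14.7 and 12.4 CPM in HAT1 WT and 16.8, 14.01 and 25.7 CPM in HAT1 KO. In all 3 the other KO lines lay near or within the WT range. Gdf10, also called BMP3b, was at 4.93, 3.06 and 6.72 CPM in HAT1 WT and 2.30, 9.17 and 0.389 CPM in HAT1 KO, and Gdf6, a ligand of joint formation, at 3.06, 2.96 and 6.26 CPM in HAT1 WT and 6.61, 4.11 and 1.40 CPM in HAT1 KO. The remaining 5 lines overlapped between the genotypes for both. Leaving out KO line 72 turned the direction of the log2 fold change for 22 of the 52 genes (42.3%), where 17.1% of all genes turned. Some of the 22 lay near 0 in both fits, so their sign says little. Smad3, for example, was at 0.0037 with all lines and -0.015 without KO line 72. At an unadjusted p under 0.05 there were, without that line, 6 lower genes (9.47% of all genes were lower) and 1 higher gene (9.06% of all genes), and 0 at an adjusted p under 0.05 (0.485% of all genes). The 6 lower genes were the 4 found with all lines, Ltbp1 and Grem1.

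**Figure D4:**
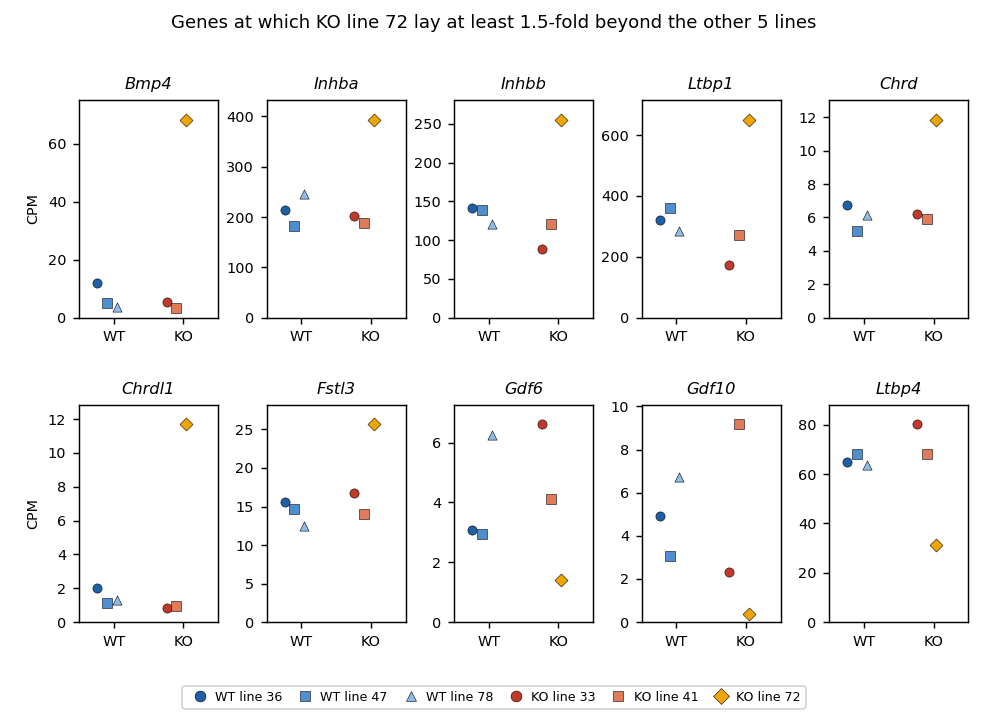
Normalised read count (CPM, linear axis from 0) in each line of the 10 genes for which KO line 72 (diamond) lay at least 1.5-fold beyond the other 5 lines, on CPM + 0.5. The first 7 panels have the diamond at the top and the last 3 at the bottom.

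Other genes of the pathways, 72 in all and 55 of them tested, were read as a second list. None had an adjusted p under 0.05 in the edgeR test, whereas 4 did in the DESeq2 Wald test (5.81% of all genes) and 1 with voom (1.81% of all genes). At an unadjusted p under 0.05 in edgeR there were 3 lower (5.45%) and 6 higher (10.9%), beside the 8.77% and 5.88% of all genes given above. The lower genes were Nrros, Itgav and Tgif1. Nrros, which anchors latent TGF-beta on macrophages and microglia, was at 55.9, 57.5 and 47.5 CPM in HAT1 WT and 36.6, 33.4 and 26.3 CPM in HAT1 KO, a log2 fold change of -0.74 (SE 0.14, adjusted p = 0.103). All KO lines were below all WT lines, as were the summed macrophage markers, whose part in it was not tested. Itgav, the integrin chain that activates latent TGF-beta, was at 713, 751 and 722 CPM in HAT1 WT and 603, 652 and 629 CPM in HAT1 KO, without overlap (log2 fold change -0.21, SE 0.07, adjusted p = 0.252). Tgif1, a repressor that binds Smads, differed by -0.16 (SE 0.056, adjusted p = 0.28).

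Higher genes of that list were Fkbp1a, Klf10, Msx1, Dlx5, Acta2 and Tagln. Acta2, the smooth muscle actin of myofibroblasts, was at 3559.5, 3327 and 2980.2 CPM in HAT1 WT and 4959, 4448 and 3831 CPM in HAT1 KO. Tagln, which encodes the actin-binding protein transgelin, was at 1384, 1246 and 1064 CPM in HAT1 WT and 1579, 1722 and 1447 CPM in HAT1 KO. Both lay higher in every KO line, with log2 fold changes of 0.42 (SE 0.13, adjusted p = 0.236) and 0.36 (SE 0.13, adjusted p = 0.277). Klf10, an early TGF-beta response gene, differed by 0.25 (SE 0.10) and Fkbp1a, whose product holds the type I receptor inactive, by 0.23 (SE 0.088). Dlx5, a homeobox gene downstream of BMP, was near the limit of detection with 0.106, 0.149 and 0.121 CPM in HAT1 WT and 0.505, 0.296 and 0.778 CPM in HAT1 KO. Its log2 fold change was 2.06 (SE 0.45, adjusted p = 0.133) with all lines and 1.68 (SE 0.44) without KO line 72. Msx1, another homeobox target of BMP, was at 1.83, 2.88 and 1.48 CPM in HAT1 WT and 1.75, 2.22 and 88.1 CPM in HAT1 KO. Msx1 was high in KO line 72 alone, in which Bmp4 was also highest, and without that line the log2 fold change was -0.044 (adjusted p = 0.967).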

How the data were processed

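Libraries were made from total RNA of 6 pMEF lines with the TruSeq RNA kit. The authors deposited raw read counts per gene, without normalization, and the submitters' processing notes name mm10 and edgeR. The aligner, counter and use of strand were not given in the sources used here. The same table holds the authors' own fold changes, mean log2 CPM, F, p-values and q-values, which were not used. Every gene had at least 3 counts in total, and 24 symbols turned into dates were restored from the identifier.

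Counts were tested with edgeR 4.0.16 (R 4.3.3): filterByExpr, TMM scaling, and glmQLFit with glmQLFTest on genotype, two-sided, with Benjamini-Hochberg adjustment over 14773 genes at 0.05. The SE is the log2 fold change over the root of F and approximate. The common dispersion between lines was 0.0747, and how far depth limits the precision for genes of low count was not tested. Exon lengths and positions came from GENCODE M21 (GRCm38). DESeq2 1.42.0, limma 3.58.1 voom with quality weights, other scalings, no filter, lane, and leaving out each line were the alternatives. The edgeR, DESeq2 and voom tests were also run on counts simulated with the dispersions fitted here. Those counts held no outlying line and no lane or sex difference, so nothing is read from them for such features. Genes, lists and tests were chosen with earlier results of these data known, and the 1.5-fold rule for single lines after their values were seen. Values are given per line for genes with an unadjusted p under 0.05 or no overlap of genotypes and for the highest gene per kilobase of each role, and genes of the wider list are named at an unadjusted p under 0.05. All other genes given per line, those at which KO line 72 stood apart included, were chosen after their values were seen.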

Additional observations from a re-analysis of the deposited data

How the results depend on the processing

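The count of pathway genes with an adjusted p under 0.05 was 0 in every alternative except the DESeq2 Wald test. That test gave 2 (Acvr1b and Skil), where 5.81% of all genes passed. DESeq2 gave no p to Bmp4 and Chrdl1. At an unadjusted p under 0.05 the lower genes numbered 7 in DESeq2 and 7 with voom, against 4. Among all genes 9.04% were lower in DESeq2 and 10.2% with voom, against 8.77%. The higher pathway genes numbered 2 in DESeq2 and 2 with the lane as a term, against 1. Among all genes 7.52% were higher in DESeq2 and 1.39% with the lane as a term, against 5.88%. The lane fit counted 4 genes of the wider list, against 9, with 4.91% of all genes lower and 1.39% higher. It gives no weight to WT line 36, the only line of lane 8. Without 1 line at a time the lower genes ran from 2 (without WT line 78) to 6 (without KO line 33 or 72). The higher ones ran from 0 (without WT line 47 or KO line 33) to 5 (without KO line 41). Genes of the wider list, in either direction, ran from 3 (without WT line 78) to 17 (without KO line 41). They numbered 4 or 5 without WT line 36, WT line 47 or KO line 33. The shares of all genes moved as well. Lower and higher genes made up 6.56% and 3.02% without WT line 36, 6.11% and 5% without WT line 47, and 7% and 3.11% without WT line 78. They made up 8.09% and 4.3% without KO line 33, 8.25% and 5.41% without KO line 41, and 9.47% and 9.06% without KO line 72. The count of pathway genes at an adjusted p under 0.05 stayed at 0. The cause of these shifts was not tested. Of 84 values for the 7 named genes under these alternatives, 70 kept their side of an unadjusted p of 0.05, 10 lost it (Tgfb3, Tgfbr2 and Id2), 4 gained it (Grem1) and 0 changed direction. No paired analysis was possible because the genotypes share no replicate number. Bmp2, Bmp3, Bmp5, Bmp6, Acvr2b and Gdf5 were each under 2 CPM in all lines. Their totals over the 6 libraries ran from 34 (Gdf5) to 730 counts (Acvr2b). How far depth or variation between lines limits them was not tested.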
